A study of Rattus norvegicus with 34 samples.

Results

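The constitutive proteasome subunits were taken as the probes whose gene symbol is Psma, Psmb, Psmc or Psmd followed by a number, without Psmb8, Psmb9 and Psmb10. These were 35 genes, each with 1 probe, of 21812 genes and 22226 probes on the array: 8 Psma, 8 Psmb, 6 Psmc and 13 Psmd genes. Primary neurons of the rat cortex were the source of the RNA, hybridised to 34 Illumina RatRef-12 V1 arrays after biotin labelling. The protocol describes neurons of Hooded Wistar embryos (the strain label reads Wistar) kept in culture for 21 days, with tissue of several pups pooled, and at least 12 wells pooled for each time. Each of 3 cultures came from another pregnant rat. It gives embryonic day 17, whereas the age label gives gestation day 15 to 16.

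Uninjured controls had 6 arrays. Mild neurotrauma was sampled 0, 8, 15, 24 and 48 h later with 3 arrays per time, and severe neurotrauma at the same times, again with 3 arrays each except the single array of 0 h. No genotype, drug or transgene is named for any group. Axon bundles were cut with a knife or stretched with puffs of oxygen, and the labels do not say which of these was mild and which severe, nor which culture an array came from. The p-values therefore measure only the spread between these arrays, which may be technical. Precision is limited by the number of arrays, and since the ratios carry no signal level, it is not known which members were well above background.

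The deposited values are ratios, each array having been divided by a mean over 3 arrays. Control 1 to 3 were the divisor of 18 arrays (all controls and mild 0, 8, 15 and 24 h), and the arrays labelled mild 48 h were the divisor of themselves and of all severe arrays, 16 in all. A ratio of 1 is the mean of the divisor, and the 2 sets were never compared directly. The 2 deposited tables hold the arrays in different orders, so the labels of 18 arrays are uncertain. Were the order of the second table right, "mild 48 h" would mean control 4 to 6, "control 4 to 6" would mean mild 0 h, and each of the mild times 0, 8, 15 and 24 h would move on to the next sampled time. Control 1 to 3 and the severe arrays keep their labels in both orders. The chip of each array was read from the same sample records as the labels. For the 18 arrays it is therefore as uncertain as the label, and so are the comparisons by chip. Severe 48 h replicate 2 stood apart, with a median log2 ratio of -1.24 over 85 ribosomal protein genes. Results that rest on it are given with and without it.

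The 26S proteasome degrades proteins tagged with ubiquitin. Its 20S core is a stack of rings in which alpha subunits (Psma) form the gate and beta subunits (Psmb) carry the active sites. The 19S particle holds a ring of ATPases (Psmc) that unfold substrates and non-ATPase subunits (Psmd) that bind and remove ubiquitin. In neurons it acts in protein quality control and in synaptic turnover. Psmd5 and Psmd9 are chaperones of 19S base assembly and not subunits of the finished particle.

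In mammalian cells the factor Nfe2l1 drives many subunit genes together through the antioxidant response element, written here as TGACNNNGC. The rat promoters of RefSeq's GRCr8 table, from 250 bases before to 50 bases after the start, were searched on both strands for it and for CCAAT (bound by NF-Y) and CCGGAA (an ETS core). No matches of different motifs overlapped in the promoters printed. An entry was found for 30 of the 35 genes. TGACNNNGC was in 7 of these 30 promoters (23.3%, against 12.1% of all 33469 promoters), CCAAT in 15 (against 37.5% of all) and CCGGAA in 16 (53.3% against 15.0%). Printed below, 5′ to 3′ on the gene's strand with matches in capitals, are the promoters of the 3 catalytic subunits, Psmb5 (chr15:32047330-32047629, minus strand), Psmb6 (chr10:55737638-55737937, plus strand) and Psmb7 (chr3:42827421-42827720, minus strand). Beside them stand Psmd2 (chr11:93763339-93763638, minus strand), a 19S subunit that recurs in the comparisons, and Psmd9 (chr12:39018215-39018514, minus strand), which holds all 3 motifs.
Psmb5: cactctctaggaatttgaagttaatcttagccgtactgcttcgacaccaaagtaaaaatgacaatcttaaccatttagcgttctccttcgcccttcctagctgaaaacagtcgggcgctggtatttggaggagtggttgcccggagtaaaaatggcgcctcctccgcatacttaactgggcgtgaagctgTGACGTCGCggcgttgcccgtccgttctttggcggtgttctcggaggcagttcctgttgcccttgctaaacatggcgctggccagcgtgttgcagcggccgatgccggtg
Psmb6: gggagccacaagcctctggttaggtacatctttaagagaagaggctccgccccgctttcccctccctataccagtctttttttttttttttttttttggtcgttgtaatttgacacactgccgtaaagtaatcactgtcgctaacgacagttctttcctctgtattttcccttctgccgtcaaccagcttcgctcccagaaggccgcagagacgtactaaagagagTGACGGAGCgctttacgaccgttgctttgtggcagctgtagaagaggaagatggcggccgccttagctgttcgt
Psmb7: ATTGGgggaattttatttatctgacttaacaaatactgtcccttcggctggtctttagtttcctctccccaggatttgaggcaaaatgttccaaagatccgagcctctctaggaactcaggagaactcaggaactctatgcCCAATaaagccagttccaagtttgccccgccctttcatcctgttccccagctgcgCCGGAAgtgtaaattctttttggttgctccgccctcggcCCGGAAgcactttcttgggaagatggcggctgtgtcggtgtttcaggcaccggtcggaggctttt
Psmd2: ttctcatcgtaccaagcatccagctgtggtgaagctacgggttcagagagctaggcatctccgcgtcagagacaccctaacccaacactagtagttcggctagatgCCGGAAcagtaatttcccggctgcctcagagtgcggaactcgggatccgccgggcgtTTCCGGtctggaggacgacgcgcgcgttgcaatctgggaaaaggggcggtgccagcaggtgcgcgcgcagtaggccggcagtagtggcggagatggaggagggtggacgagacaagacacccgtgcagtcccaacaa
Psmd9: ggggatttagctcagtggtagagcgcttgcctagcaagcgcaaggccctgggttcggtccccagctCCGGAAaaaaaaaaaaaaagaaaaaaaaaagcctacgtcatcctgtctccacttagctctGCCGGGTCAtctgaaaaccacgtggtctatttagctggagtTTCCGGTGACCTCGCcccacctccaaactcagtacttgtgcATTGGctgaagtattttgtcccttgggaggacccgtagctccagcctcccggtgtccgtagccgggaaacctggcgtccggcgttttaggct
The nearest TGACNNNGC match lay 24 bases before the start in Psmb6 and 60 bases before it in Psmb5. Psmb7 and Psmd2 held no such match but 2 CCGGAA matches each. A match is a description of letters and was not tested as a binding site.

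Of the 35 genes, Psma8 and Psmb11 are known in other mammals as subunits of testis and thymus. The probe named Psmd14, the lid deubiquitinase, carries a description of a T-box gene, so its identity is doubtful.

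The plot of all members by array shows the whole data set. In the set divided by control 1 to 3, the median log2 ratio over the 35 members was 0.04, -0.20 and 0.14 in control 1, 2 and 3. It was 0.38, 0.37 and 0.36 in control 4, 5 and 6, and 0.36, 0.48 and 0.21 in mild 0 h replicates 1 to 3. Every array of control 4 to 6 and of mild 0 h lay above every array of control 1 to 3. At later times the median lay nearer to 0: it was 0.21, 0.12 and 0.10 at mild 8 h, -0.18, 0.14 and -0.01 at mild 15 h, and 0.07, 0.12 and 0.26 at mild 24 h. These later arrays overlapped control 1 to 3. In the other set the median was -0.08, 0.04 and 0.01 in the arrays labelled mild 48 h, and 0.02 to 0.35 in 12 of the 13 severe arrays. Severe 48 h replicate 2 was the exception, at -0.63, with 31 of 35 members below 1.

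**Figure D1:**
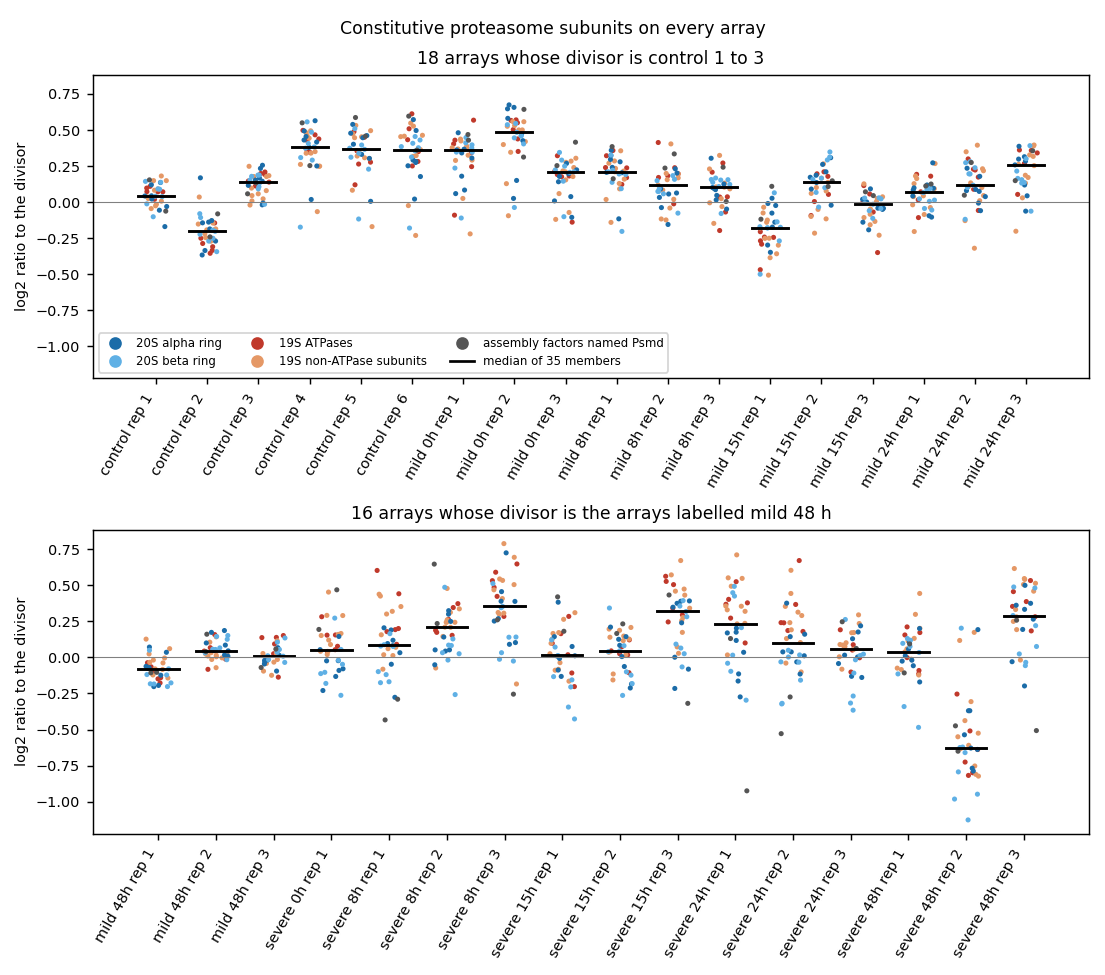
Log2 ratio of each of the 35 members (points, coloured by role) on each of the 34 arrays, with the median of the members as a bar, for the 2 sets of arrays with different divisors. The medians of control 4 to 6 and mild 0 h lie between 0.21 and 0.48, and severe 48 h replicate 2 lies at -0.63.

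Control 4 to 6 were set against control 1 to 3, which by the deposited labels asks how far the 6 controls are one group. In the other order of the arrays it would set mild 0 h against control 1 to 3. Here 22 of the 35 members were higher and 0 lower at an adjusted p under 0.05 (limma), where the background was 11.5% of all 21917 features higher and 0.31% lower. The median difference over the members was 0.38 on the log2 scale, against 0.04 over all features. Other housekeeping lists stood likewise: 37 of 65 oxidative phosphorylation genes (median 0.38) and 21 of 85 ribosomal protein genes (median 0.30) were higher.

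The assembly chaperone Psmd5 had ratios of 0.958, 0.945 and 1.10 in control 1 to 3 and of 1.46, 1.50 and 1.51 in control 4 to 6. The groups did not overlap, and the difference of 0.58 ± 0.08 (SE, n = 3 and 3, 1.50-fold, limma adjusted p = 0.00339) was the largest of the 35. Psmd2, the base scaffold that docks ubiquitin shuttles, had ratios of 1.02, 0.913 and 1.07 against 1.40, 1.45 and 1.46, a difference of 0.52 ± 0.09 (adjusted p = 0.00474). Its groups were also apart.

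In the 20S alpha ring 4 of 8 genes rose. Psma4 had ratios of 1.03, 0.776 and 1.19 in control 1 to 3 and of 1.35, 1.39 and 1.49 in control 4 to 6 (0.52 ± 0.14, adjusted p = 0.0219). The low value of control 2 widened its reference group. In the beta ring 6 of 8 rose. Psmb6, the caspase-like site, went from 0.932, 0.929 and 1.14 to 1.47, 1.42 and 1.37 (0.51 ± 0.12, adjusted p = 0.0134). Psmb7, the trypsin-like site, went from 0.992, 0.869 and 1.14 to 1.30, 1.29 and 1.28 (0.38 ± 0.10, adjusted p = 0.0263). Both were apart in all arrays. For Psmb5, the chymotrypsin-like site, ratios of 1.10, 0.788 and 1.11 against 1.33, 1.17 and 1.35 did not overlap either, but the difference of 0.37 ± 0.13 did not pass (adjusted p = 0.0768).

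Of the 19S ATPases 4 of 6 rose, with Psmc4 at 0.50 ± 0.13 and Psmc2 at 0.50 ± 0.12. Of the 19S non-ATPase genes 6 of 11 rose, among them Psmd7, the partner of the lid deubiquitinase, at 0.49 ± 0.12, the ubiquitin receptor Psmd4 at 0.48 ± 0.11 and the base scaffold Psmd1 at 0.48 ± 0.12. The lid subunit Psmd11 differed by 0.36 ± 0.13 and did not pass (adjusted p = 0.08). The probe named Psmd14 differed by -0.15 ± 0.07, and Psmb11 by -0.15 ± 0.06, neither past the test. Both assembly chaperones rose.

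**Figure D2:**
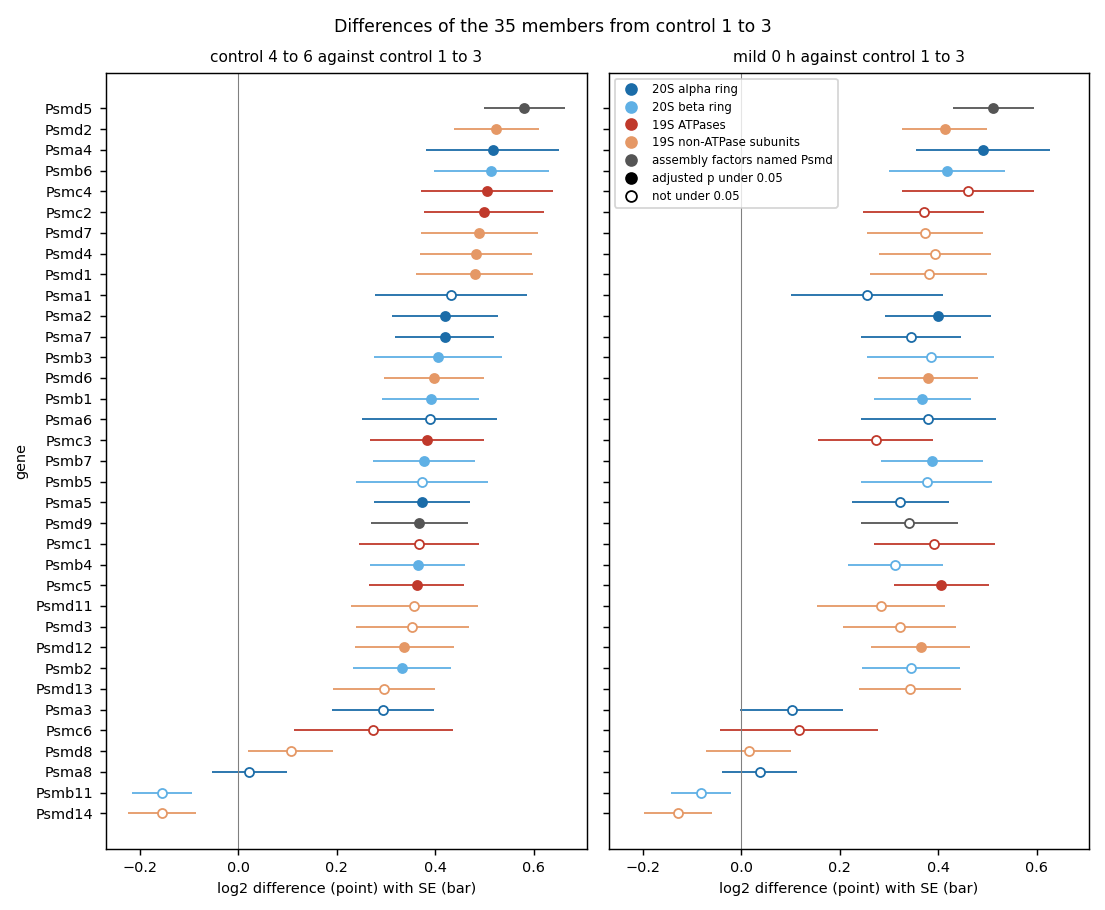
Log2 difference with its SE (bars) of each member from control 1 to 3, for control 4 to 6 (left) and mild 0 h (right), with filled points where the limma adjusted p was under 0.05. On the left 22 of 35 points are filled, led by Psmd5 at 0.58, and on the right 10.

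The arrays of the 2 groups did not overlap for 31 members that were higher in control 4 to 6 and for 2 that were lower (background 24.4% and 5.51%). The count of 22 was 2 without control 2, 2 without control 5, 5 without control 6 and 13 without control 4. Control 1 to 3 were on chips 1 and 2, control 4 on chip 2, and control 5 and 6 on chip 3. Within chip 2, the one chip that held both groups, the median difference over the members was 0.45. There 32 of 35 members were positive, against 60.3% of all features. With chip as a block, however, 0 members were called (median 0.42). The fit of all 34 arrays also called 0. The count changed with scaling, and 0 members were called after quantile normalization. After centring each array on ribosomal and oxidative phosphorylation genes 1 member was higher and 3 were lower. The median over the members was then 0.05. The centring genes were themselves higher in this comparison, so by construction the centring lowered the members' median. For these settings and with arrays left out, the share of all features called was not set beside the counts. They are therefore not read as a result about the members. Markers moved in the same comparison, with 4 of 12 neuronal and 5 of 8 fibroblast genes higher. The median log2 ratio of the neuronal list was 0.22 to 0.31 in control 4 to 6 against -0.02 to 0.06, and that of the fibroblast list 0.39 to 0.55 against -0.34 to 0.16. Their part in the result was not tested. In such bulk RNA fewer cells of a type and less RNA per cell cannot be told apart.

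Some of the genes around the proteasome were called higher in the same comparison, and others were not. Among the 3 activator genes on the array, Psme4, the nuclear cap, differed by 0.64 ± 0.14 and Psme1 by 0.37 ± 0.10. In the assembly list 2 of 3 rose: Psmg1, a 20S chaperone, by 0.51 ± 0.12, and Pomp, the maturation factor of the core, by 0.33 ± 0.08. Of the 5 associated genes 3 rose, namely the ubiquitin receptor Adrm1, the deubiquitinase Usp14 and Akirin2, which brings proteasomes into the nucleus. In the transcription and processing list 1 of 5 rose, the segregase Vcp. Of 11 ubiquitin genes and shuttles 3 rose, among them Ubqln1 (0.60 ± 0.09) and Rps27a (0.34 ± 0.09). Of the 3 immunoproteasome genes 2 were higher, with a median difference of 0.56 over the 3. No gene of these lists fell.

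Mild 0 h against control 1 to 3 gave a like set of values, with the same 3 reference arrays. The members' median difference was 0.37 (all features 0.03), and 10 of 35 were higher and 0 lower (background 4.61% and 0.164%). Psmd5 had ratios of 1.38, 1.56 and 1.33 (0.51 ± 0.08, adjusted p = 0.00834), all above its reference arrays. Psmd2 had ratios of 1.34, 1.45 and 1.21 (0.41 ± 0.09, adjusted p = 0.0205), and Psma4 of 1.40, 1.58 and 1.21 (0.49 ± 0.14, adjusted p = 0.0457). Replicate 2 was the highest of the 3 for each of them.

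The other members called were Psma2 in the alpha ring, Psmb1, Psmb6 and Psmb7 in the beta ring, the ATPase Psmc5, and the lid subunits Psmd6 and Psmd12. Their differences ran from 0.36 to 0.42. Psmb5 at 0.38 ± 0.13, Psmd4 at 0.39 ± 0.11 and Psmd11 at 0.28 ± 0.13 did not pass. The probe named Psmd14 was at -0.13 ± 0.07. Psme4 (0.58 ± 0.14), Pomp, Usp14, Akirin2 and Ubqln1 were again called higher, and no other gene of the pathway lists outside the constitutive proteasome was. The arrays did not overlap for 22 members that were higher and 1 that was lower (background 15.5% and 4.63%). The count of 10 was 0 without mild 0 h replicate 2, 1 without replicate 1, 1 without control 2, and 22 without mild 0 h replicate 3. Leaving out control 1 gave 6 and leaving out control 3 gave 20. On chips 1 and 2, which held both groups, the members' median difference was 0.41 and 0.25, but with chip as a block 1 member was called. The fit of all 34 arrays, that of only the arrays compared and that with 6 controls as reference called 0, the last with a median of 0.15. Quantile normalization gave 1 called, the centring 2, both lower, and array weights 21. For these alternatives and with arrays left out, the share of all features called was not set beside the counts. They are not read as a result about the members. Neuronal markers (4 of 12 higher) and fibroblast markers (2 of 8 higher) moved with it, and their part was not tested.

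At mild 8, 15 and 24 h 0 of 35 members were called in limma (background 0.0867% higher and 0.0319% lower at 8 h, and 0% in both directions at 15 and 24 h). At an unadjusted p under 0.05 the counts were 4, 3 and 6. The median over the members was 0.15, -0.02 and 0.18. With all 6 controls as reference it was -0.0429, -0.22 and -0.034, which turned the direction at 8 and 24 h, and after the centring it was 0.0369, -0.11 and 0.0042. Arrays did not overlap for 5, 0 and 2 members that were higher (background 12.8%, 5.39% and 8.27%) and for 1 lower at each time (background 4.46%, 3.16% and 3.24%). The largest differences at 8 h were those of Psmc4 (0.37 ± 0.13), Psmd2 (0.36 ± 0.09, adjusted p = 0.0923) and Psmd5 (0.32 ± 0.08). At 15 h they were negative, with Psmc5 at -0.29 ± 0.10, Psmd13 at -0.26 ± 0.10 and the doubtful Psmd14 probe at -0.19 ± 0.07. At 24 h Psmc4 (0.30 ± 0.13), Psmc2 (0.27 ± 0.12) and Psmd2 (0.26 ± 0.09) led. The 95% confidence intervals of all 35 members lay within -0.28 to 0.65 at 8 h, -0.50 to 0.37 at 15 h and -0.35 to 0.58 at 24 h.

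Of the catalytic subunits, Psmb5 had ratios of 1.16, 1.12 and 1.08 at 8 h, 0.889, 1.27 and 0.970 at 15 h, and 1.06, 1.22 and 1.10 at 24 h. Psmb6 had 1.25, 1.11 and 1.11, then 0.884, 1.24 and 1.02, then 1.01, 1.07 and 1.31. At 15 h replicate 1 was the lowest and replicate 2 the highest array for each, and the arrays overlapped control 1 to 3.

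A test over the mild times, in which the divisor cancels, called 3 of 35 members (background 2.06%). Psmc5, an ATPase of the base, had ratios of 1.35, 1.36 and 1.25 at 0 h and 1.09, 0.992 and 1.03 at 8 h. It reached 0.723, 0.938 and 0.785 at 15 h and returned to 1.08, 1.06 and 1.04 at 24 h. The arrays of 0 h lay above all later ones and those of 15 h below all others. The change from 0 to 15 h was -0.70 ± 0.10 (limma F test over 4 times, adjusted p = 0.00902).

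The lid subunit Psmd13 followed a like course, from 1.30, 1.34 and 1.16 at 0 h through 1.16, 0.972 and 1.08 at 8 h to 0.704, 0.966 and 0.853 at 15 h. At 24 h its ratios were 1.07, 1.03 and 1.13 (0 to 15 h -0.60 ± 0.10, adjusted p = 0.0244). Psmd5 had ratios of 1.31, 1.26 and 1.18 at 8 h, 1.08, 1.08 and 1.05 at 15 h, and 1.09, 1.03 and 1.28 at 24 h (0 to 15 h -0.41 ± 0.08, adjusted p = 0.0358). It stayed above 1 on all 12 mild arrays of this set. With 1 array left out in turn the count ran from 1 (without mild 0 h replicate 1 or 2, or mild 15 h replicate 1 or 3) to 6 (without mild 15 h replicate 2). It was 2 without mild 8 h replicate 1 or 2 or mild 24 h replicate 1, and 5 without mild 24 h replicate 3. Chip as a block called 1, the centring 1, the fit of all 34 arrays 0 and array weights 17. Beside these counts, and those with 1 array left out, no share of all features called was set. They are not read as a result about the members.

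The severe times were each compared with their divisor, labelled mild 48 h. These reference arrays were on chips 4, 1 and 2, whereas most severe arrays were on chip 3, so injury and chip can largely not be told apart. At the deposited scaling no member was called in limma: 0 of 35 at 8, 15, 24 and 48 h, where the background was 3.46%, 4.43%, 2.84% and 3.44% higher and 5.13%, 6.37%, 6.34% and 7.75% lower. At an unadjusted p under 0.05 the counts were 4, 1, 2 and 1. The median over the members was 0.26, 0.12, 0.14 and -0.06, and 0.01, 0.00, 0.02 and 0.00 over all features. The difference was positive for 30, 28, 27 and 9 of 35 members, and for 11705, 11095, 12246 and 11081 of all 21917 features. After centring each array on ribosomal and oxidative phosphorylation genes 15, 12, 9 and 19 members were higher and 0 lower. Their medians were then 0.43, 0.41, 0.38 and 0.37, so the direction at 48 h turned. By construction this centring also raised the median of all features at each time, by amounts given in the last section. Array weights gave 6, 2, 3 and 0 higher, and a fit of only the arrays compared 5, 0, 3 and 0. The share of all features called under these settings was not set beside the counts, so they are not read as a result about the members. Ribosomal protein genes stood otherwise, with 47, 52, 56 and 66 of 85 lower and 0 higher, and oxidative phosphorylation genes had medians of 0.12, 0.10, 0.09 and -0.05.

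**Figure D3:**
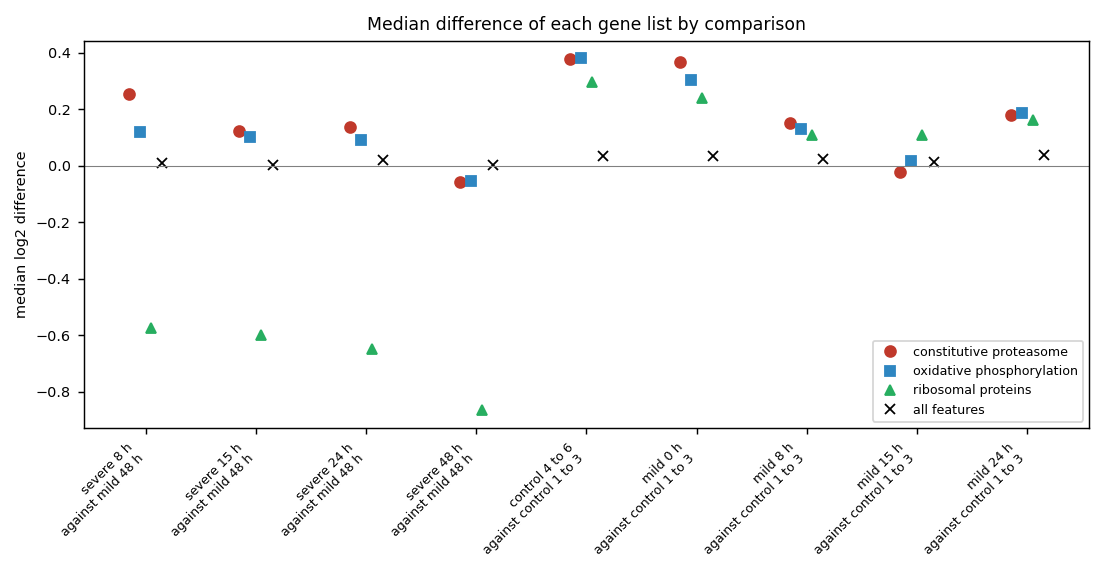
Median log2 difference in each comparison for the 35 constitutive proteasome genes, 65 oxidative phosphorylation genes, 85 ribosomal protein genes and all 21917 features. In the severe comparisons the proteasome medians run from -0.06 to 0.26 and the ribosomal ones from -0.87 to -0.57.

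The widest positive differences were in the 19S particle. Psmd1 had ratios of 0.919, 0.998 and 1.08 in the arrays labelled mild 48 h and 1.36, 1.39 and 1.62 at severe 8 h (0.54 ± 0.24, adjusted p = 0.258). It had 1.20, 1.16 and 1.49 at 15 h, 1.64, 1.52 and 1.23 at 24 h (0.54 ± 0.24, adjusted p = 0.232), and 1.36, 0.683 and 1.53 at 48 h. All severe arrays but severe 48 h replicate 2 exceeded all 3 reference arrays. With that array left out of the fit, 2 members were called at 8 h and at 24 h, Psmd1 among them. This choice was made after the data were seen, and it changes only the spread at these times. No share of all features called was set beside these counts, so they are not read as a result about the members. The lowest adjusted p at 8 h was that of the lid subunit Psmd8 (0.26 ± 0.09, adjusted p = 0.104).

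Psmc5 had ratios of 0.885, 1.00 and 1.11 in the reference, 1.52, 1.27 and 1.51 at 8 h (0.52 ± 0.26) and 1.44, 1.59 and 1.14 at 24 h (0.47 ± 0.26). Psmd2 had 0.977, 1.00 and 1.02 in the reference, 1.34, 1.18 and 1.73 at 8 h (0.49 ± 0.21), 1.07, 1.09 and 1.59 at 15 h (0.30 ± 0.21) and 1.47, 1.36 and 1.18 at 24 h (0.41 ± 0.21). Both were apart from the reference at 8 and 24 h, and neither passed the test. At 15 h Psma1 followed Psmd1 with 0.31 ± 0.20. Psmd4 was at 0.16, 0.12, 0.12 and -0.02 at the 4 times, Psmd11 at 0.23, 0.08, 0.14 and -0.16, and the Psmd14 probe at -0.08, 0.14, 0.08 and 0.05.

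By role at severe 8 h the median difference was 0.32 over 6 ATPases, of which 5 were higher with no overlap, and 0.27 over 11 non-ATPase genes, with 7 such. It was 0.17 over 8 alpha genes, with 3 such, and 0.03 over 8 beta genes, with 2. In all, 17, 8, 6 and 0 of 35 members were higher with no overlap at 8, 15, 24 and 48 h (background 15.2%, 16.2%, 15.6% and 10.4%), and 0, 1, 2 and 0 were lower with none (background 13.5%, 16.2%, 15.7% and 14.8%). Among the 95% intervals of the 35 members the lowest bound was -0.72 and the highest 1.09 at 8 h, and -1.11 and 1.06 at 24 h. A rise of 1 on the log2 scale lay within the intervals of Psmc5 and Psmd1 at both times. A fall of 1 lay within that of Psmd5 at 24 h. Every other interval at these times excluded a difference of 1 in either direction.

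The contrast between particle and core can be read within each array, where scaling cancels. The 19S median (17 genes) minus the 20S median (16 genes) was 0.05, -0.05 and 0.02 in the arrays labelled mild 48 h. It was 0.12, 0.18 and 0.23 at severe 8 h, 0.10, 0.05 and 0.08 at 15 h, 0.28, 0.23 and 0.09 at 24 h, and 0.22 in the single severe 0 h array. At 48 h it was 0.04, 0.02 and 0.15. The 8 h and 24 h arrays lay above all 3 reference arrays, while the lowest of 15 h and both lower ones of 48 h did not. In the set divided by control 1 to 3 it ran from -0.09 to 0.09. No test was made of it.

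**Figure D4:**
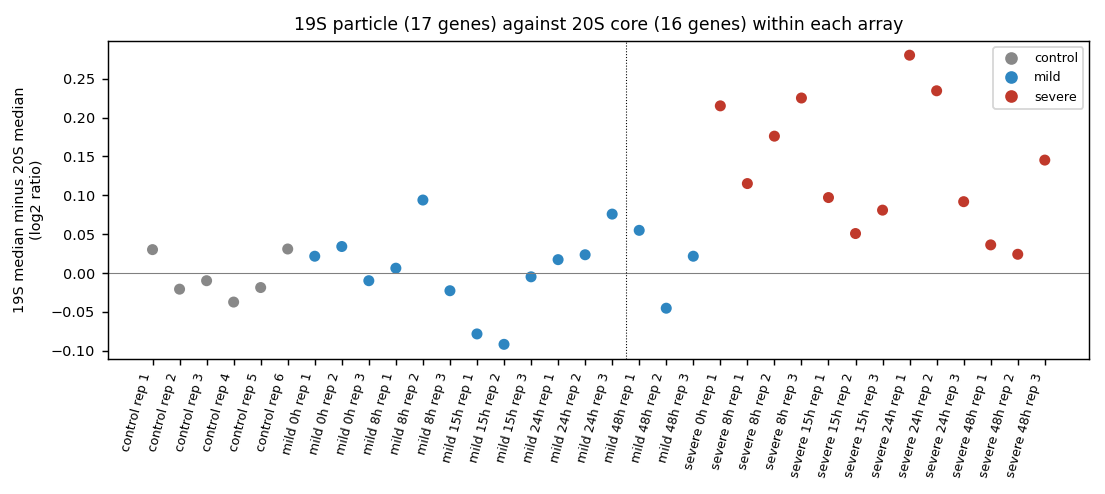
Median log2 ratio of 17 genes of the 19S particle minus that of 16 genes of the 20S core on each array, by injury label. The dotted line parts the 2 divisor sets. All 13 severe arrays lie above 0, from 0.02 to 0.28. The arrays labelled mild 48 h lie at 0.05, -0.05 and 0.02, so some severe arrays overlap them.

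In the core, the beta subunits Psmb1, Psmb4 and Psmb6 were below 1 on most severe arrays. Psmb4 had ratios of 0.885, 1.04 and 1.08 in the reference and 0.890, 0.837 and 1.02 at severe 8 h. At 24 h it had 0.814, 0.800 and 0.803, below all reference arrays (-0.31 ± 0.22, adjusted p = 0.522). It was below 1 on 12 of the 13 severe arrays, Psmb1 and Psmb6 on 10 each, and the alpha genes Psma7 and Psma8 on 9 each. At severe 8 h Psmb6 had 0.886, 1.06 and 1.10, so it was not low at that time. The widest differences at 48 h were those of Psmb6 at -0.49 ± 0.19 (adjusted p = 0.137), Psmb4 at -0.42 ± 0.22 and Psmb1 at -0.41 ± 0.21, none past the test. Severe 48 h replicate 2 had the lowest ratio of all severe arrays for each, and without it the members' median at 48 h was 0.20 in place of -0.06, with 1 member called higher. Without replicate 3 it was -0.26, with 2 lower. Neither count had the share of all features called set beside it.

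Each constitutive catalytic subunit has an immunoproteasome counterpart that takes its place in the core after interferon. Psmb5 at severe 8, 15, 24 and 48 h differed from the reference by 0.01 ± 0.25, 0.11 ± 0.25, 0.16 ± 0.25 and -0.01 ± 0.25, whereas its counterpart Psmb8 was higher by 1.47 ± 0.21, 1.86 ± 0.21, 1.54 ± 0.21 and 1.58 ± 0.21 (adjusted p from 0.000103 to 0.000661). Psmb6 was at 0.02, -0.13, -0.20 and -0.49, and Psmb9 rose by 1.02, 1.33, 0.99 and 0.99. Psmb7 was at 0.26, 0.08, 0.11 and -0.18, and Psmb10 was called at 15 h alone, at 1.08 ± 0.23. The difference between the pairs was not tested. In control 4 to 6 against control 1 to 3, 2 of the 3 immunoproteasome genes were also higher (median difference 0.56 over the 3). In the single severe 0 h array Psmb5 had a ratio of 0.925 and Psmb8 one of 2.76.

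**Figure D5:**
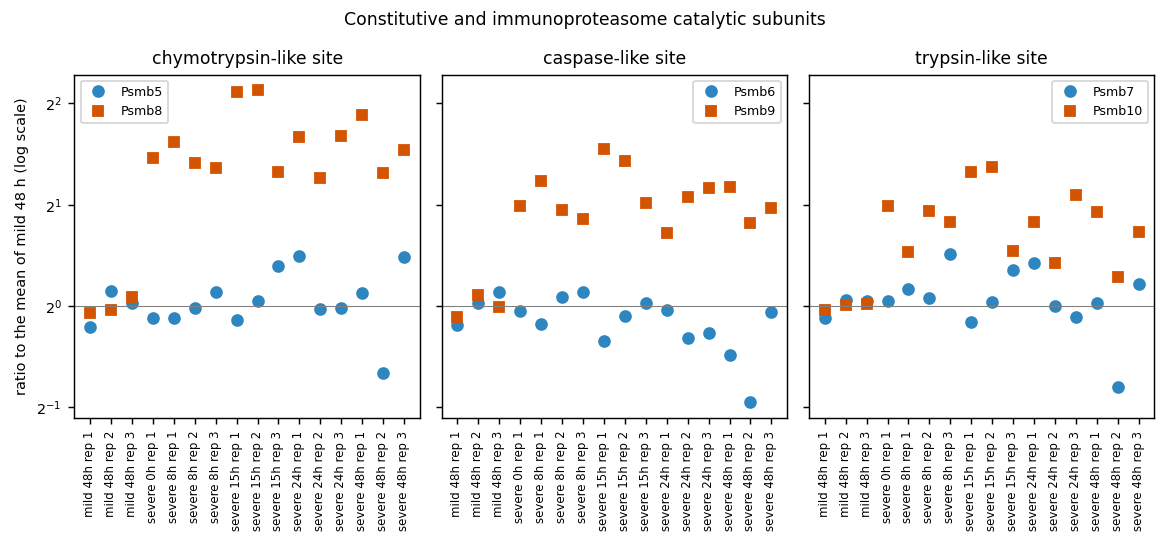
Ratio to the mean of the arrays labelled mild 48 h (log axis) of each constitutive catalytic subunit (circles) and its immunoproteasome counterpart (squares) on 16 arrays. Psmb8 lies above Psmb5 on every severe array, and Psmb5 ranges from 0.633 to 1.41 there.

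Psmd5 varied most among severe arrays. Its ratios were 0.741, 1.57 and 0.838 at 8 h, 1.34, 1.18 and 0.802 at 15 h, 0.527, 0.693 and 1.19 at 24 h, and 1.07, 0.720 and 0.704 at 48 h. Severe 0 h had 1.38, and the reference 0.931, 1.03 and 1.04. It was above 1 on 6 severe arrays and below 1 on 7, with both kinds at each of 8, 15, 24 and 48 h. Its SD within groups, pooled over 5 groups of this set, was 0.44 on the log2 scale, the highest of the 35 members, whose median was 0.28. In the set divided by control 1 to 3 its SD was 0.10, rank 32 of 35.

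In the severe comparisons Nfe2l2, a stress factor that binds the same element as Nfe2l1, was lower at all 4 times, by -0.61 ± 0.17, -0.84 ± 0.17, -0.91 ± 0.17 and -0.78 ± 0.17 (adjusted p from 0.00477 to 0.0476), the only one of 5 genes in its list called. Rps27a, a ubiquitin fusion with a ribosomal protein, was lower at 15, 24 and 48 h, the only one of 11 in its list called. Psme4 was higher at 15 h (0.80 ± 0.22, adjusted p = 0.0332), 1 of 3 activator genes, and no gene of the assembly and associated lists was called.

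Marker genes moved in the severe arrays on a larger scale than the members. Fibroblast markers were lower for 8, 7, 8 and 8 of 8 genes at 8, 15, 24 and 48 h, with median log2 ratios between -5.28 and -2.95 in all 13 severe arrays against -0.06 to 0.10 in the reference. Ciliated cell markers were higher for 5 of 5, astrocyte markers for 6 of 8 and oligodendrocyte markers for 5 of 11 at each time. Neuronal markers had medians from -1.83 to 0.42 in the severe arrays against -0.04 to 0.01, with 1 of 12 lower at 15 and at 48 h. The ratios carry no level, so whether neurons made up these cultures could not be read from them. The part of this in the members' values was not tested. Within the chips that held both groups, 1 array against 1, the members' median was 0.11 at severe 8 h, 0.08 at 15 h and 0.20 at 24 h, and no severe 48 h array shared a chip with the reference.

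Over the severe times 8 to 48 h 0 of 35 members were called (limma F test, background 0%), and at an unadjusted p under 0.05 the counts were 0 members and 809 features. The change of severe against mild over 8, 15 and 24 h, in which both divisors cancel, gave 0 of 35 (background 0%), with 1 member and 1047 features at an unadjusted p under 0.05.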

How the data were processed

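The deposited values are linear ratios. Setting the deposited tables against each other showed that the authors divided each array's signal by its median and then, per probe, by the mean of 3 arrays: of 5984 triples of arrays, 2 averaged 1 at every probe within 0.0001. The deposited scanner intensity table has 34 signal columns whose headings name no sample, and they entered no comparison. They were only set against the ratios to find how these were made and in what order the arrays stand, and no level was taken from them. The description column beside them named probes. The scanner software is not given in the sources used here.

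Ratios were taken to log2, with no floor, and probes of a gene averaged (303 genes), which gave 21917 features. Names came from the platform annotation (13192 probes), RefSeq accessions (363) or descriptions (8566), and 105 probes had none. One item of the pathway lists is not reported here by name. Groups were tested two-sided within each divisor set by lmFit and eBayes (limma 3.58.1, R 4.3.3; 1 mean per group), with Benjamini-Hochberg adjustment over all features and a threshold of 0.05. Differences are log2 with the SE. No fit dropped or imputed an array in the main results. Each group's 3 arrays were counted as 3 samples.

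Simulated data were drawn with independent noise for each feature. There, 54 of 100 genes changed by 0.5 and 82 of 100 changed by 1 were recovered for severe 8 h against mild 48 h. For mild 8 h against control 1 to 3 these were 75 and 96. Unchanged features called were 4 and 16. The changed genes were picked at random from all features, so these rates are not those of the members. Sequences were read from RefSeq's GRCr8 promoter table. Python 3.11.15 (pandas 2.3.3) handled the tables, with matplotlib 3.10.9 for the plots.

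Replicate numbers were not used as pairs: correlations of same-numbered arrays' deviations ran from -0.686 to 0.749. Named genes were the catalytic subunits, Psmd14, Psmd11 and Psmd4, and in each comparison up to 10 members past the threshold by size or, with none, the 3 largest. Others, such as Psmd5 and Psmb4 in the severe arrays, were chosen after their values were seen. The members, lists and tests were chosen with earlier results of these data known. Alternatives were all 34 arrays or only those compared in the fit, quantile normalization, centring on ribosomal and oxidative phosphorylation genes, chip or replicate number as a block, single probes, 6 controls as reference, array weights, leaving out features at the smallest ratio and leaving out arrays.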

Additional observations from a re-analysis of the deposited data

Results flagged for a closer look

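Control 1 to 6 were searched for a far array in each of 35 members. Psma3, an alpha ring gate subunit, was the only one with such an array: control 2 had a ratio of 0.829, against 1.08 to 1.23 in the other 5. Chance gives about 1 in 20 such searches, and control 2 was low for most members.

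The differences between mild times of 3 members passed the test of the difference itself: Psmc5 (adjusted p = 0.00902), Psmd13 (adjusted p = 0.0244) and Psmd5 (adjusted p = 0.0358), all by limma's F test over 4 times.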

How the results depend on the processing

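Main counts of members called were 22 (control 4 to 6), 10 (mild 0 h), 3 (mild time course) and 0 in each other comparison. Centring on ribosomal and oxidative phosphorylation genes gave 15, 12, 9 and 19 members higher at severe 8, 15, 24 and 48 h, with medians of 0.43, 0.41, 0.38 and 0.37. It gave 4 (median 0.051) for control 4 to 6, 2, both lower (median 0.10), for mild 0 h, medians of 0.0369 and 0.0042 at mild 8 and 24 h, and 1 in the mild time course. It turned Psmd4 and Psmb5 at severe 48 h to 0.40 and 0.42. By construction it moved the median of all features by 0.18, 0.29, 0.26 and 0.43 in the severe comparisons, -0.29 for control 4 to 6 and -0.24 for mild 0 h. All 34 arrays in the fit gave 2 and 1 at severe 8 and 48 h, and 0 for control 4 to 6, mild 0 h and the mild time course. Fitting only the arrays compared gave 5 and 3 at severe 8 and 24 h and 0 at mild 0 h. Array weights gave 6, 2 and 3 at severe 8, 15 and 24 h, 21 at mild 0 h, 2 at mild 8 h and 17 in the mild time course, with a median of 0.33 for control 4 to 6. Quantile normalization gave 0 (median 0.17) for control 4 to 6, 1 (median 0.20) for mild 0 h and a median of 0.0853 at mild 8 h. Chip as a block gave 0 (median 0.42) for control 4 to 6, 1 for mild 0 h and 1 for the mild time course. The replicate block gave 0 for mild 0 h and 0 for the mild time course. No paired analysis was possible for control 4 to 6 because these arrays share no replicate number with control 1 to 3. All 6 controls as reference gave 0 (median 0.15) at mild 0 h and medians of -0.0429, -0.22 and -0.034 at mild 8, 15 and 24 h. For these the cause was not tested, and the share of all features called was not set beside the counts.

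With 1 array left out, counts ran from 0 to 2 at severe 8 h, 0 to 0 at 15 h, 0 to 2 at 24 h, 0 to 2 at 48 h, 2 to 27 for control 4 to 6, 0 to 22 for mild 0 h and 1 to 6 for the mild time course, and were 0 in each other comparison. The 2 at severe 8 h and the 2 at 24 h came without severe 48 h replicate 2, chosen after seeing the data. Here too the share of all features called was not set beside the counts. Medians ran from 0.14 to 0.30, 0.04 to 0.20, 0.10 to 0.19 and -0.26 to 0.20 at severe 8, 15, 24 and 48 h, 0.27 to 0.45 for control 4 to 6, 0.25 to 0.42 for mild 0 h, and 0.0439 to 0.21, -0.13 to 0.07 and 0.0586 to 0.23 at mild 8, 15 and 24 h. Signal over background is not known for any member.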
